A study of Mus musculus with 6 samples.

Results

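The genes described here encode the subunits of integrins, the receptors by which cells hold on to their matrix, and of laminins, a family of basement membrane ligands for those receptors. A list of 18 integrin α genes, 8 integrin β genes and 10 laminin chain genes was matched by NCBI gene identifier, and all 36 were found among the 18099 genes measured. They were sorted by the cell type each is best known from into 8 leukocyte, 2 platelet, 8 epithelial and 18 mesenchymal genes, although many of them are used by more than 1 cell type. Low counts left out 1 member, *Itgad*, so that 35 were tested.

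An integrin is a pair of an α and a β subunit spanning the cell membrane. The β1 subunit joins many α partners, and the α subunit decides in large part whether the pair binds collagen, laminin, or proteins with the RGD motif such as fibronectin. A laminin is a trimer of an α, a β and a γ chain that assembles into the basement membranes around muscle fibres, nerves, vessels and epithelia. Tendon is mostly fibrillar collagen laid down by fibroblasts, and its cells meet that collagen through β1 integrins, whereas leukocytes use β2 and α4 integrins to leave the blood.

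Bulk RNA sequencing was performed on neonatal mouse Achilles tendons, collected a week after the tendon had been cut across in each leg. The *LysM-Cre; Ampkα1 fl/fl* group (3 libraries, below the LysM-Cre group) carried floxed alleles of *Prkaa1*, which encodes the AMPKα1 kinase subunit, and Cre expressed from the lysozyme locus. The control group (3 libraries) was made of *Ampkα1 fl/fl* littermates, which carry the same floxed alleles without Cre. *LysM-Cre* is active in macrophages, neutrophils and other myeloid cells, while the RNA came from all cells of the tissue, so a change in subunit genes of any cell type could be seen.

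Libraries held between 18076805 and 19479887 reads assigned to genes. *Lyz2*, the Cre locus, had 7372 to 7778 reads in the control libraries and 8 to 15 in the LysM-Cre libraries. Low *Lyz2*, Cre and the targeting of *Prkaa1* came together in every LysM-Cre library, so this comparison cannot tell their effects apart. *Prkaa1* had 740, 688 and 690 reads in the controls and 626, 751 and 652 in the LysM-Cre group (log2 fold change −0.08 ± 0.09 SE, adjusted p = 0.756 by edgeR), so this count over the whole gene in whole tissue was no check of the labels. All 10 tendon markers, led by *Col1a2* and *Col1a1*, were detected in both groups, with sums of 40584 to 46274 and 41048 to 45948 TPM, a level per transcript length that can be compared between genes. Sums of macrophage, mast cell, platelet, mural, endothelial and erythroid markers were lower in every LysM-Cre library than in every control. The platelet sum was nearly all *Pf4*. In whole tissue, fewer cells of a type and less RNA per cell cannot be told apart.

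*Itgb1*, the shared β1 subunit, had the highest level of the family, at 551 ± 36.3 TPM (SD, n = 3) in the controls and 554 ± 25.7 in the LysM-Cre group. It was followed by the laminin chains *Lamb1* (mean over 6 libraries 217 TPM) and *Lamc1* (197), by *Itgb5* (216), which pairs with αv, and by the collagen receptor subunit *Itga11* (140). *Itga5* (131), the α subunit of the fibronectin receptor, and *Lama4* (124), the laminin α chain of vessels and stroma, came next. *Lamb1* and *Itgb5* changed order between the groups, at 215 ± 19.6 and 191 ± 7.43 TPM in the controls and at 220 ± 18.6 and 241 ± 16.0 TPM in the LysM-Cre group. *Itga5* and *Itga11* were about 1 SD apart in the controls, at 130 ± 13.2 and 116 ± 7.62 TPM, and further apart in the LysM-Cre group, at 132 ± 7.40 and 165 ± 15.0 TPM. At the low end, *Itgae*, *Itgb6*, *Lamb3*, *Lamc3*, *Lama1* and *Itgad* had means under 1 TPM.

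Between the groups, 2 of the 35 members tested passed an adjusted p of 0.05 (edgeR, adjusted over 14261 genes), against 1.29% of all genes tested. *Itga11* rose, as 0.526% of all genes did, and *Lama3* fell, as 0.764% did. With DESeq2, 7 members passed (4.68% of all genes), with the replicate block 2 (1.72%), and 0 where edgeR was run without robust estimation of the spread (0.898%). The fold change was above 0 for 11 members and below 0 for 24, with a median log2 fold change of −0.13, where the median over all genes tested was −0.00. At an unadjusted p of 0.05, 9 members passed against 14.6% of all genes, 3 upward (6.03% of all genes) and 6 downward (8.60%). The libraries of both groups did not overlap for 10 members (28.6%), compared with 20.4% of all genes tested. For each of these 10 the exact permutation test gave p = 0.1, the smallest value that 3 against 3 libraries allow. *Itga11* and *Itgb5* were the pair of members higher in every LysM-Cre library (8.94% of all genes), and *Itga1*, *Itga2*, *Itga2b*, *Itga4*, *Itga9*, *Lama3*, *Lama5* and *Lamb3* were lower in every one (11.4% of all genes).

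**Figure D1:**
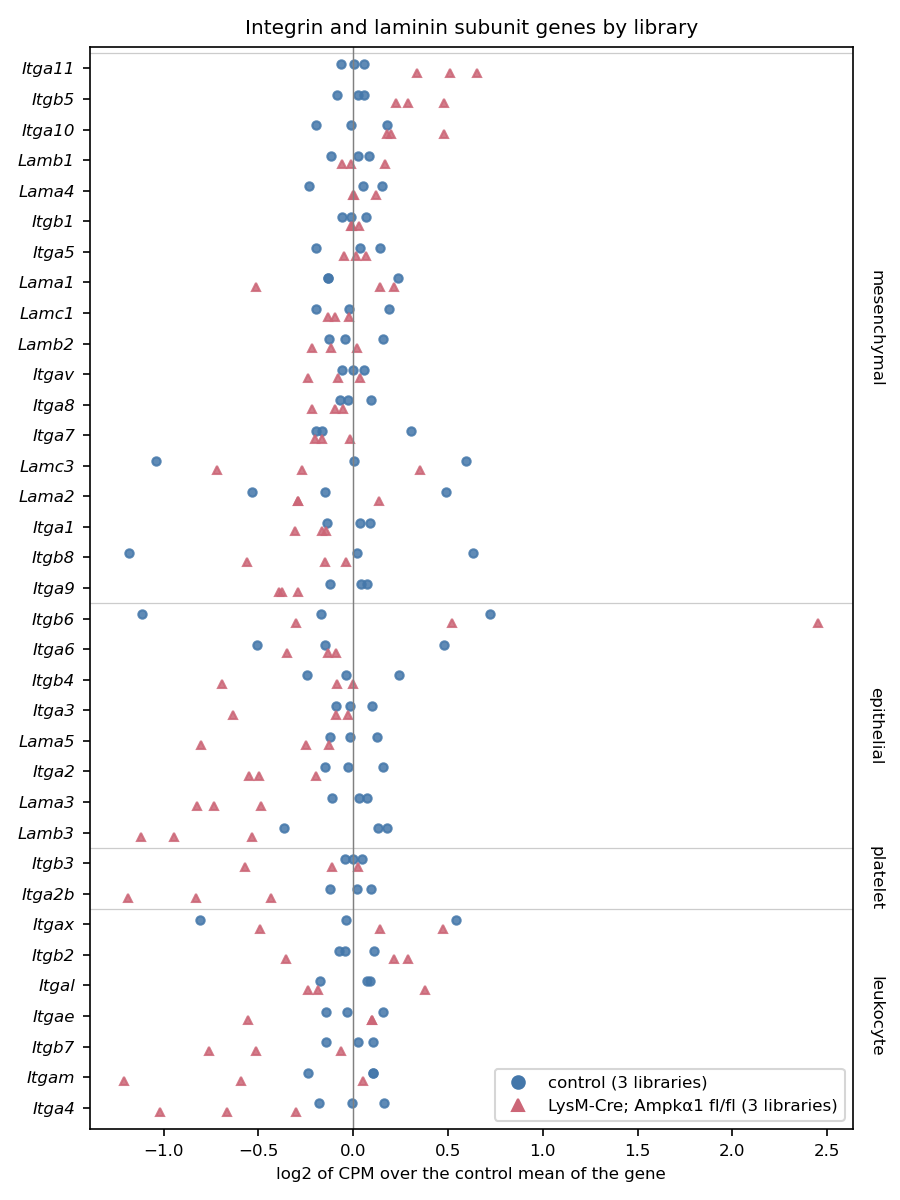
Each row is 1 of the 35 members tested, grouped by cell type class, and each point is 1 library, plotted as log2 of its CPM (reads per library total, scaled between libraries) over the mean of the gene's 3 control libraries. *Itga11* and *Itgb5* at the top have all 3 LysM-Cre triangles to the right of the control circles, while *Itga4*, *Itga2b*, *Lama3* and *Lamb3* have them to the left.

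**Figure D2:**
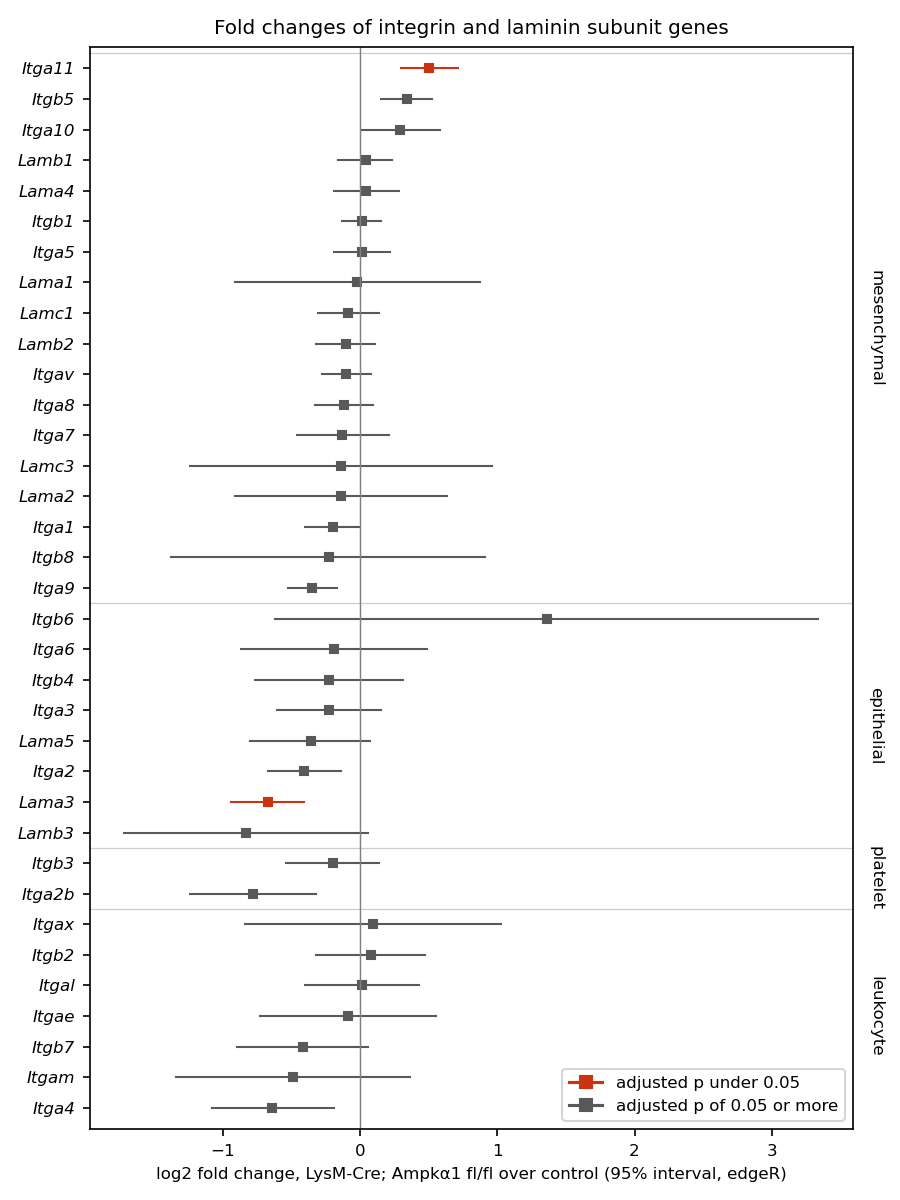
Squares give the log2 fold change of each member tested and lines its 95% interval from edgeR, with the 2 members under an adjusted p of 0.05 in red. *Itga11* lies at 0.50, *Lama3* at −0.67, and the widest interval, that of *Itgb6*, runs from −0.62 to 3.34.

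Of the 4 collagen-binding α subunits, 1 passed the test (1.29% of all genes). *Itga11* encodes α11, a receptor for fibrillar collagen on fibroblasts that pairs with β1. Its gene (NCBI gene 319480) lies on chromosome 9 at chr9:62677855-62783979 in the mouse build GRCm38.p6. It measured 280, 257 and 270 CPM in the controls and 423, 340 and 383 CPM in the LysM-Cre libraries, where CPM gives reads per library total after scaling between libraries. The lowest LysM-Cre library was above the highest control. The rise was 1.42-fold (log2 fold change 0.50 ± 0.09 SE, 95% interval 0.30 to 0.71, adjusted p = 0.0416 by edgeR), and the adjusted p was 0.0253 with the replicate block, in which libraries of the same number are compared. With a skeletal muscle score as covariate the log2 fold change was 0.48 and the adjusted p 0.105, and without robust estimation of the spread the adjusted p was 0.0614. The call was lost on leaving out any library except LysM-Cre replicate 2, with log2 fold changes of 0.43 to 0.58 and adjusted p of 0.0142 to 0.189.

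*Itga2* encodes α2, a collagen receptor of platelets, epithelia and other cells including mast cells. It measured 57.6, 62.6 and 71.1 CPM in the controls and 43.5, 45.2 and 55.6 CPM in the LysM-Cre libraries. The groups did not overlap, with the closest pair of libraries 57.6 and 55.6 CPM. The log2 fold change was −0.41 ± 0.11 SE, which did not pass the test (adjusted p = 0.156 by edgeR) but passed it with the replicate block (adjusted p = 0.0357), with DESeq2 (0.0413) and with the muscle score (log2 fold change −0.58, adjusted p = 0.0319). *Itga1*, whose α1 subunit binds collagen on smooth muscle and stromal cells, had 33.1 to 38.8 CPM in the controls and 29.4 to 33.0 CPM in the LysM-Cre group (log2 fold change −0.20 ± 0.09 SE, adjusted p = 0.325). *Itga10*, whose α10 subunit is best known from chondrocytes, had 22.5 to 29.2 and 29.2 to 35.9 CPM (0.29 ± 0.12 SE, adjusted p = 0.322).

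Within this set of 4 genes, the *Itga11* share of summed TPM was 74.7%, 73.8% and 71.4% in the controls and 82.2%, 79.9% and 80.9% in the LysM-Cre libraries. The groups did not overlap, and the means of 73.3% ± 1.72 and 81.0% ± 1.18 (SD, n = 3) differed by 7.69 percentage points (exact permutation test, p = 0.1). *Itga2* made up 11.8% ± 1.20 in the controls and 6.98% ± 1.14 in the LysM-Cre group, and *Itga1* 8.08% ± 0.309 and 5.50% ± 0.629, again without overlap. The shares of a set add up to the whole, so a rise of *Itga11* by itself lowers the others. These lower shares are therefore not independent of that rise, but they also hold the genes' own lower levels. Mean TPM was 18.7 in the controls and 14.1 in the LysM-Cre group for *Itga2*, and 12.8 and 11.1 for *Itga1*. How much of each lower share came from either was not computed. The share of *Itga10* overlapped between the groups, at 6.84% ± 0.622 and 6.55% ± 0.381. The 4 genes together summed to 146 to 165 TPM in the controls and 190 to 220 TPM in the LysM-Cre group, so the set's total did not overlap between groups either.

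**Figure D3:**
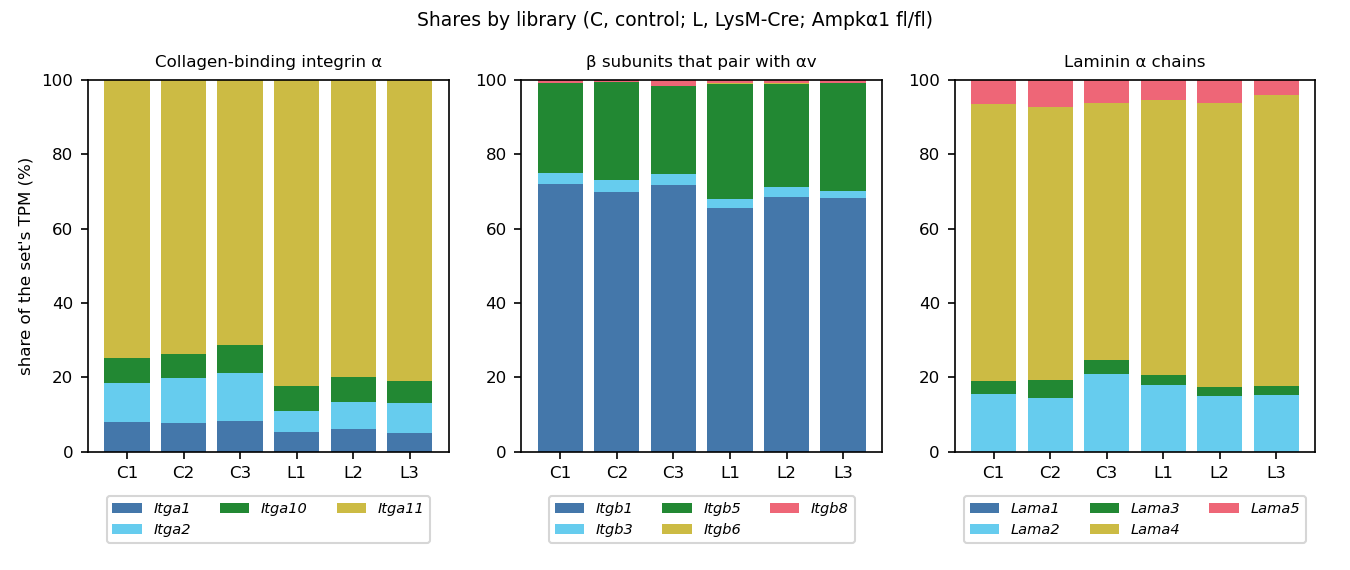
Stacked bars give, for each of the 3 control libraries (C1 to C3) and the 3 LysM-Cre libraries (L1 to L3), the percent of summed TPM taken by each gene of a set. In the left panel *Itga11* takes 71.4% to 74.7% of the collagen-binding α subunits in the controls and 79.9% to 82.2% in the LysM-Cre group. In the middle panel the *Itgb5* band is 23.8% to 26.5% and 27.8% to 31.0%. In the right panel *Lama4* takes most of the laminin α chains in each library.

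*Itga2* and *Itga1* lie 26.0 kb apart on chromosome 13, whereas *Itga10* and *Itga11* lie on chromosomes 3 and 9. The 250 bases before the RefSeq start of each of these 4 genes are printed in GRCm38.p6, 5′ to 3′ on the strand of the gene, because these receptors bind the same kind of ligand while their genes had fold changes on both sides of 0. Capitals mark CAGAC, the box that SMAD proteins bind, and its reverse complement GTCTG, the same box on the other strand.
Itga11, chr9:62677605-62677854, plus strand: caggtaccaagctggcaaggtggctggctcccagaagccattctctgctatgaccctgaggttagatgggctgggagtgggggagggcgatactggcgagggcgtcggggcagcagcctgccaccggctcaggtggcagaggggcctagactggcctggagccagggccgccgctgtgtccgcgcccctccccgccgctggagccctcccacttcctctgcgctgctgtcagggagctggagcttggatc
Itga10, chr3:96645334-96645583, plus strand: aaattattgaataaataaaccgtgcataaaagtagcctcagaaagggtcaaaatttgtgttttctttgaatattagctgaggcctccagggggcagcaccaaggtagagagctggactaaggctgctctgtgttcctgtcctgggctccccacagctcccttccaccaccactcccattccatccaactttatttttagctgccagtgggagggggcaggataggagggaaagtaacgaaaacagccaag
Itga1, chr13:115101965-115102214, minus strand: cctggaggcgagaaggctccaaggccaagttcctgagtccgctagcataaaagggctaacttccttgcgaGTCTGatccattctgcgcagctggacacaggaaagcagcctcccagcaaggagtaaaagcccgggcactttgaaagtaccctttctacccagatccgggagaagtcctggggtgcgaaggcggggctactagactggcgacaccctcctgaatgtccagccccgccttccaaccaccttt
Itga2, chr13:114932101-114932350, minus strand: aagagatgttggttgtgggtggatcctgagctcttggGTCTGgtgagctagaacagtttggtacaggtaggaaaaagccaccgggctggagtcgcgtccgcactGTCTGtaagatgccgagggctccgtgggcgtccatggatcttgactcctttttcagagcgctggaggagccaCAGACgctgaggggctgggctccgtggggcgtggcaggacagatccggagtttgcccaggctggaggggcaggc
On either strand, this box was found 3 times in the *Itga2* window, 1 time in the *Itga1* window and 0 times in those of *Itga10* and *Itga11*. It occurred in 42.2% of the 32851 mouse promoter windows and in 15 of 26 windows of 23 member genes. The GC box GGGCGG was in 0 of the 4 windows (32.7% of all windows), and the TATA box TATAAA in 0 of the 26 member windows (12.4% of all windows). Bases were 68.4% G or C before *Itga11* and 48.0% before *Itga10*, with a median of 52.4% over all windows. These counts describe letters in a window and say nothing of the factors.

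Among the subunits of receptors for RGD proteins, 0 passed by edgeR, and *Itgb5* had the smallest p. Its β5 subunit pairs with αv and binds vitronectin. It measured 254, 260 and 236 CPM in the controls and 348, 292 and 306 CPM in the LysM-Cre libraries, again without overlap. The log2 fold change was 0.34 ± 0.08 SE (95% interval 0.15 to 0.52), and the adjusted p was 0.0990 by edgeR, 0.0852 with the replicate block and 0.00263 by DESeq2. Of the β subunits that can join αv, *Itgb5* made up 24.8% ± 1.47 of summed TPM in the controls and 29.3% ± 1.62 in the LysM-Cre group (SD, n = 3, exact permutation test, p = 0.1).

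The partners of these subunits had narrow intervals around 0. *Itgav*, which encodes αv, had a log2 fold change of −0.10 (95% interval −0.28 to 0.08), *Itga5* of 0.01 (−0.19 to 0.22) and *Itgb1* of 0.01 (−0.13 to 0.15). *Itgb1* measured 1124, 1029 and 1065 CPM in the controls and 1067, 1097 and 1066 CPM in the LysM-Cre libraries, and its SE of 0.06 was the smallest of the members tested. *Itga8*, which pairs with β1 to bind nephronectin, had 16.6 to 18.6 and 15.0 to 16.8 CPM (−0.12 ± 0.09 SE). Altogether 12 members had a 95% interval that lay between −0.5 and 0.5 on the log2 scale, among them *Itga1*, *Itga7*, *Lama4*, *Lamb1*, *Lamb2* and *Lamc1*.

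*Itga9* and *Itga4* encode related α subunits that bind VCAM1, and α9β1 also binds tenascin C and osteopontin. *Itga9* measured 37.2, 41.6 and 42.6 CPM in the controls and 31.2, 30.9 and 33.1 CPM in the LysM-Cre libraries. All LysM-Cre libraries were below all controls, with a log2 fold change of −0.35 ± 0.08 SE and an adjusted p of 0.0769 by edgeR and 0.0266 by DESeq2. In the table of single transcripts, the most abundant of its 3 transcripts measured 10.4, 10.2 and 9.01 TPM in the controls and 6.12, 6.79 and 5.40 TPM in the LysM-Cre libraries (log2 fold change −0.70 ± 0.11 SE, adjusted p = 0.208 over all transcripts tested). Another ran from 0 to 2.88 TPM in the controls and from 0.470 to 4.93 TPM in the LysM-Cre group, so how reads were divided between the transcripts bears on the first value. Over all members, 0 of 69 transcripts tested passed by edgeR, with 9 (13.0%) at an unadjusted p of 0.05. Of all 35819 transcripts tested, 1 passed and 6.03% had an unadjusted p under 0.05.

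In the leukocyte class 0 of 7 members tested passed by edgeR (1.29% of all genes). At an unadjusted p of 0.05 there was 1 (14.3%, against 14.6% of all genes), and by DESeq2 1 (4.68% of all genes), *Itga4* in both cases. *Itga4*, whose α4 subunit pairs with β1 or β7 on lymphocytes, monocytes and mast cells, measured 37.0, 32.8 and 41.6 CPM in the controls and 23.4, 30.1 and 18.3 CPM in the LysM-Cre libraries. The groups did not overlap. The log2 fold change was −0.64 ± 0.19 SE, with an adjusted p of 0.181 by edgeR, 0.0221 by DESeq2 and 0.0364 by edgeR without LysM-Cre replicate 2. *Itgb7*, the β7 subunit of gut-homing lymphocytes and mast cell precursors, measured 5.24, 5.52 and 4.66 CPM in the controls and 3.60, 4.92 and 3.03 CPM in the LysM-Cre group (−0.42 ± 0.21 SE, adjusted p = 0.422). LysM-Cre replicate 2 lay within the controls.

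*Itgam* encodes CD11b, the αM subunit of the complement receptor on macrophages and neutrophils, and is among the genes used to sort myeloid cells. It measured 43.7, 43.7 and 34.5 CPM in the controls and 27.0, 42.1 and 17.6 CPM in the LysM-Cre libraries. LysM-Cre replicate 2 sat among the controls and replicate 3 far below them, and the log2 fold change of −0.49 ± 0.33 SE had a 95% interval from −1.34 to 0.36 (adjusted p = 0.596). Its partner *Itgb2*, the β2 subunit shared by these receptors, had 25.5 to 29.0 CPM in the controls and 21.0 to 32.8 CPM in the LysM-Cre group (0.08 ± 0.17 SE). *Itgal*, the αL subunit of LFA-1 on lymphocytes and other leukocytes, had a log2 fold change of 0.01 (95% interval −0.40 to 0.43), and *Itgax*, the CD11c of dendritic cells and some macrophages, of 0.09 (−0.84 to 1.03).

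Within the α partners of β2, the *Itgam* share of summed TPM was 73.4%, 67.5% and 70.2% in the controls and 61.8%, 64.8% and 56.3% in the LysM-Cre libraries. The means were 70.4% ± 2.97 and 61.0% ± 4.30 (SD, n = 3, exact permutation test, p = 0.1). *Itgae*, the αE subunit that binds E-cadherin, stayed between 19 and 32 reads in all 6 libraries. *Itgad*, the αD partner of β2, had 1, 2 and 1 reads in the controls and 0, 1 and 2 in the LysM-Cre group, at or under the 3 reads that a count of 0 allows, so no fold is given. *Itgam*, *Itgax* and *Itgad* are neighbours on chromosome 7, with gaps of 11.0 and 23.3 kb.

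The macrophage marker sum, led by *Csf1r* and *Cd68*, was 477 to 503 TPM in the controls and 370 to 451 TPM in the LysM-Cre group. Of its 8 genes 1, *Adgre1*, passed the test (log2 fold change −0.52 ± 0.08 SE, adjusted p = 0.0333 by edgeR), where 1.29% of all genes did. *Csf1r* was at 133 to 151 and 70.1 to 107 TPM, and *Cd68* at 79.2 to 102 and 97.0 to 128 TPM. The neutrophil sum, led by *S100a8* and *S100a9*, ranged from 24.4 to 334 and from 44.8 to 398 TPM, and the T and NK cell sum, led by *Cd247* and *Il2rb*, from 6.36 to 8.44 and from 5.57 to 8.97 TPM. The mast cell sum, led by *Mcpt4* and *Cma1*, was 885 to 1205 TPM in the controls and 345 to 598 TPM in the LysM-Cre group. Of its 6 genes, 5 were lower without overlap (11.4% of all genes) and 5 had an unadjusted p under 0.05 (14.6%). By edgeR 0 passed (1.29% of all genes), with the block 4 (1.72%) and by DESeq2 4 (4.68%). The part of these cell types in the values of *Itga2*, *Itga4*, *Itgb7* and *Itgam* was not tested.

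**Figure D4:**
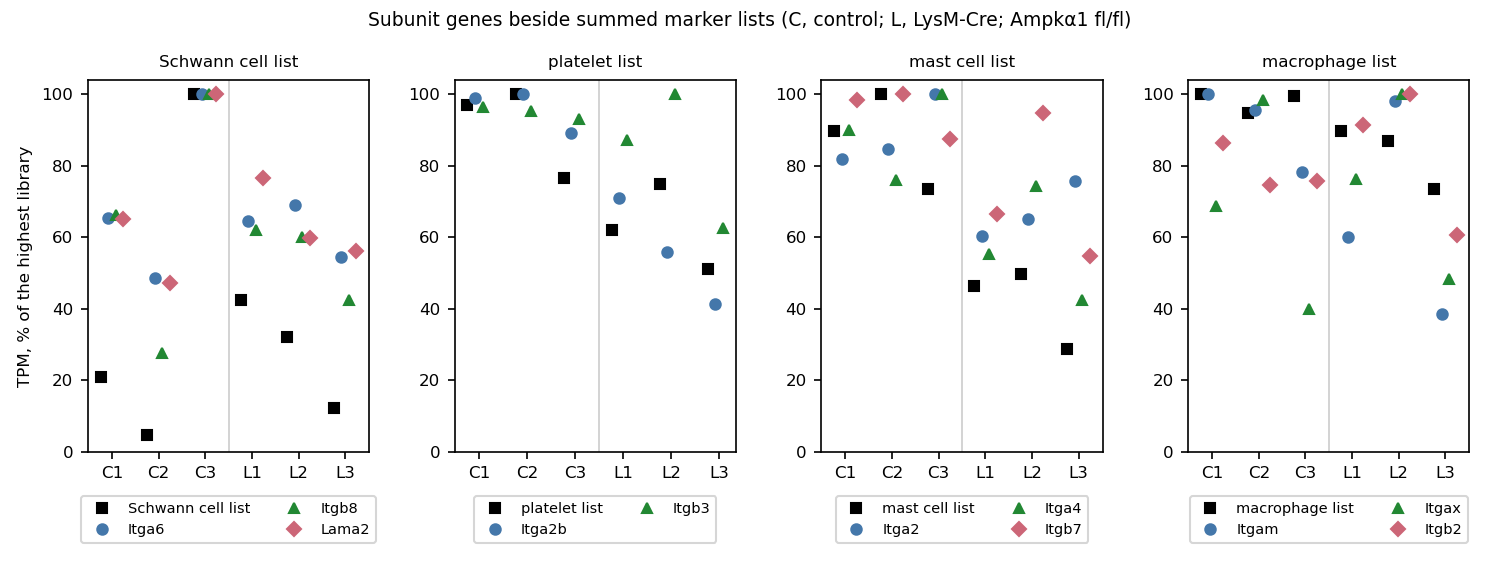
Each panel shows a marker list's summed TPM (black squares) and the TPM of member genes (coloured) in the 6 libraries, as percent of the highest library. In the left panel control replicate 3 (C3) is highest for the Schwann cell list and for *Itga6*, *Itgb8* and *Lama2*. In the platelet panel all 3 LysM-Cre libraries are lower than every control for the list and for *Itga2b*, but not for *Itgb3*. The platelet list's sum is nearly all *Pf4*.

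The platelet fibrinogen receptor is made of αIIb and β3. *Itga2b*, which encodes αIIb and marks platelets, megakaryocytes and their progenitors, measured 7.99, 8.41 and 7.24 CPM in the controls and 5.84, 4.43 and 3.46 CPM in the LysM-Cre libraries. The groups did not overlap, and the log2 fold change was −0.78 ± 0.20 SE (95% interval −1.24 to −0.32, adjusted p = 0.121 by edgeR, 0.0839 with the block and 0.0499 by DESeq2). *Itgb3*, which is also used by osteoclasts and endothelium, measured 60.8, 62.7 and 58.9 CPM and 56.2, 61.8 and 41.0 CPM. Only LysM-Cre replicate 3 stood well apart, and the log2 fold change was −0.20 ± 0.14 SE (adjusted p = 0.611). The platelet marker sum, nearly all of it *Pf4*, was 282 to 368 TPM in the controls and 188 to 276 TPM in the LysM-Cre group. This sum therefore gives mostly the level of 1 gene. *Gp1bb* was at 2.88 to 4.04 and 1.78 to 3.72 TPM, and 2 of the 9 platelet genes were at or under 3 reads in all libraries. Of the 4 tested, 3 were lower without overlap (11.4% of all genes). Too few reads for a test were found for 5, and not all of these were lower. *Gp5* had 2, 3 and 10 reads in the controls and 5, 8 and 9 in the LysM-Cre group, and *Treml1* 3, 2 and 1 and 7, 3 and 2. The part of platelets in the *Itga2b* values was not tested.

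Of the 8 epithelial members, 7 had a fold change below 0 and 1 passed the test (1.29% of all genes). *Lama3* (NCBI gene 16774), on chromosome 18, encodes the α3 chain of the laminin that anchors epidermis to its basement membrane. It measured 19.7, 21.7 and 22.4 CPM in the controls and 15.2, 12.0 and 12.8 CPM in the LysM-Cre libraries, with no overlap. It fell by 0.67 ± 0.11 SE on the log2 scale (95% interval −0.94 to −0.41, adjusted p = 0.0374 by edgeR), to 0.627 of the control level. The call held by DESeq2 (adjusted p = 6.34e-04) and by edgeR with the muscle score (0.0485). With the replicate block the call was lost (adjusted p = 0.0548), as without robust estimation of the spread (0.0547). It was also lost on leaving out any library except LysM-Cre replicate 2, with log2 fold changes of −0.78 to −0.60 and adjusted p of 0.0429 to 0.171.

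*Lamb3*, the β3 chain that assembles with α3, was near the limit of detection, with 15, 10 and 14 reads in the controls and 7, 6 and 9 in the LysM-Cre libraries (log2 fold change −0.83 ± 0.38 SE, adjusted p = 0.380). *Lama5*, the α5 chain of many epithelial and vascular basement membranes, measured 61.0, 56.7 and 67.3 CPM and 51.9, 56.5 and 35.3 CPM (−0.36 ± 0.18 SE, adjusted p = 0.434).

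The epidermal markers, led by *Krt10* and *Krt5*, summed to only 10.9 to 26.7 TPM in the controls and to 3.47, 7.69 and 70.1 TPM in the LysM-Cre libraries. LysM-Cre replicate 3, the highest of them, also held 81 reads of *Itgb6*, the β6 subunit of epithelia, against 7 to 24 in the other 5 libraries. The log2 fold change of *Itgb6* was 1.36 ± 0.82 SE (adjusted p = 0.536), and 0.17 without that library. *Lama3* was not raised in it. The part of skin in these values was not tested.

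For several laminin receptor and chain genes, the highest library was control replicate 3. *Itga6*, whose α6 subunit joins β1 or β4 in epithelia, endothelium and Schwann cells, measured 146, 114 and 226 CPM in the controls and 148, 152 and 127 CPM in the LysM-Cre libraries. *Lama2*, the α2 chain around muscle fibres and Schwann cells, measured 126, 96.3 and 196 CPM and 153, 114 and 114 CPM. *Itgb8*, whose β8 subunit joins αv to activate latent TGF-β, measured 10.8, 4.70 and 16.5 CPM and 10.4, 9.63 and 7.24 CPM. In all of these genes control replicate 3 was the highest of the 6 libraries and control replicate 2 the lowest.

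The Schwann cell sum had the same extremes, at 2170, 492 and 10336 TPM in the controls and 4382, 3332 and 1257 TPM in the LysM-Cre group. The log2 fold changes were −0.19 for *Itga6*, −0.14 for *Lama2* and −0.23 for *Itgb8* (adjusted p from 0.822 to 0.894), and without control replicate 3 they were 0.13, 0.19 and 0.22. *Itgb4*, the β4 subunit of hemidesmosomes and of Schwann cells, was also highest there, at 73.1 CPM against 38.3 to 61.9 CPM in the other libraries. The part of nerve tissue in these values was not tested.

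The remaining laminin receptors and chains had 95% intervals that spanned 0. *Itga7*, the α7 subunit of skeletal muscle, had 58.8 to 83.1 CPM in the controls and 58.6 to 66.5 CPM in the LysM-Cre group (log2 fold change −0.13 ± 0.14 SE), while the muscle marker sum, led by *Acta1* and *Mylpf*, ranged from 517 to 8252 TPM and from 2878 to 24201 TPM. *Itga3*, the α3 subunit that binds epithelial laminins, was within 13.4 to 15.3 CPM in 5 libraries and at 9.19 CPM in LysM-Cre replicate 3 (−0.23 ± 0.16 SE). *Lamc3* and *Lama1*, chains of restricted distribution, had 9 to 27 and 7 to 12 reads.

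Among the laminin α and β chains, *Lama4* and *Lamb1* had the highest TPM in each of the 6 libraries. *Lama4* made up 72.4% ± 2.82 of laminin α chain TPM in the controls and 76.2% ± 2.02 in the LysM-Cre group (SD, n = 3, exact permutation test, p = 0.2). *Lama3* made up 3.97% ± 0.911 and 2.48% ± 0.157, without overlap. *Lamb1* made up 68.3% ± 1.08 and 70.3% ± 1.07 of β chain TPM, with *Lamb2* nearly all of the rest. *Lamb1* measured 593, 536 and 616 CPM in the controls and 653, 578 and 559 CPM in the LysM-Cre libraries, which overlap (0.04 ± 0.08 SE). *Lamc1* measured 734, 651 and 849 CPM and 732, 697 and 678 CPM (−0.09 ± 0.10 SE). The mural cell sum, led by *Acta2* and *Rgs5*, was 1294 to 1369 TPM in the controls and 827 to 1072 TPM in the LysM-Cre group, and the endothelial sum, led by *Pecam1* and *Cdh5*, 466 to 503 and 434 to 458 TPM, while the log2 fold change of *Lama4* was 0.04 (95% interval −0.19 to 0.28).

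The other genes of the pathway were taken from lists of ligands, of cytoplasmic partners and of laminin partners. Of 16 integrin ligands tested, 0 passed by edgeR (3 at an unadjusted p of 0.05, 3 by DESeq2, 1 with the replicate block), and 8 lay on either side of 0. Ligands at an unadjusted p of 0.05 were 18.8% of those tested, against 14.6% of all genes. By DESeq2 4.68% of all genes passed, and with the block 1.72%. *Fn1*, fibronectin, the ligand of α5β1 and αv integrins, measured 8776, 7647 and 8104 CPM in the controls and 12350, 9751 and 10514 CPM in the LysM-Cre libraries. Every LysM-Cre library was above every control, and the log2 fold change of 0.41 ± 0.10 SE had an adjusted p of 0.103 by edgeR and 0.0290 with the block. *Ibsp*, bone sialoprotein, had 165, 91 and 24 reads in the controls and 0, 3 and 3 in the LysM-Cre libraries (adjusted p = 0.0866). Each LysM-Cre library was at or under the floor of 3 reads.

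Of 27 cytoplasmic partners tested, 0 passed by edgeR (3 at an unadjusted p of 0.05, 0 by DESeq2, 0 with the block). Partners at that unadjusted p were 11.1% of those tested, against 14.6% of all genes. *Fermt3*, the kindlin that activates integrins in blood cells, measured 25.6, 25.4 and 23.3 CPM in the controls and 22.0, 19.6 and 16.6 CPM in the LysM-Cre group (log2 fold change −0.35 ± 0.11 SE, adjusted p = 0.194). *Tns3*, a tensin that links integrins to actin, measured 200, 164 and 216 CPM and 260, 226 and 236 CPM (0.32 ± 0.11 SE, adjusted p = 0.220). Neither overlapped between groups.

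Of 17 laminin partners tested, 0 passed by edgeR (4 at an unadjusted p of 0.05, 1 by DESeq2, 0 with the block). Those at that unadjusted p were 23.5% of the list, against 14.6% of all genes, and 4.68% of all genes passed by DESeq2. *Sgcb*, the β-sarcoglycan of the dystroglycan complex, measured 96.4, 86.3 and 94.6 CPM in the controls and 109, 105 and 116 CPM in the LysM-Cre group (log2 fold change 0.25 ± 0.07 SE, adjusted p = 0.125). *Nid2*, a nidogen that ties laminin to collagen IV, measured 249, 228 and 272 CPM and 225, 192 and 194 CPM (−0.29 ± 0.09 SE, adjusted p = 0.176). The medians of the ligand, cytoplasmic and laminin partner lists were −0.00, −0.01 and −0.04.

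The SE of the log2 fold change was 0.21 to 0.82 for the 6 members with a mean under 100 reads, 0.08 to 0.46 for the 13 with 100 to 1000 reads and 0.06 to 0.30 for the 16 above. The ranges overlap, and *Itga8*, with 278 to 340 reads, had a smaller SE (0.09) than *Itga6*, with 2086 to 4127 (0.27). The labels do not say whether each library came from 1 mouse, so the p-values measure the spread between these libraries.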

How the data were processed

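RNA of repaired tendon was extracted with TRIzol and sequenced on a BGISEQ instrument, and the submitters' notes name build GRCm38.p6. The aligner and counting tool are not given in the sources used here. Estimated counts per RefSeq transcript were deposited without normalization. TPM, a level per transcript length and library total, was also deposited. The deposited 20 columns of FPKM, normalized counts and group averages were not used.

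Estimated counts of 65053 transcripts were summed per gene and rounded, and 18049 of 18099 genes (99.72%) were matched to symbols through NCBI identifiers. All samples entered 1 comparison, tested with edgeR 4.0.16 in R 4.3.3 (TMM, filterByExpr, robust quasi-likelihood F test, Benjamini-Hochberg adjustment over 14261 genes, threshold 0.05). Which test the authors applied to counts is not stated, and no fit imputed or dropped a library unless said. Shares were computed on TPM and single values on log2(CPM + 0.5), with two-sided exact permutation tests. The test was also run on simulated counts with known changes. Its outcome is not given here, and no result rests on it. The replicate numbers come from the sample titles. Deviations of same-numbered libraries correlated at 0.184, 0.118 and 0.31, above 0.1 in each pair. Libraries of different numbers were not compared in this way, so these values cannot show that the numbers pair the samples. The replicate number was therefore fitted as a block only as an alternative, and that value stands beside results whose call it changes.

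Alternatives were DESeq2 1.42.0, RLE and upper-quartile scaling, no filter, at least 10 counts in every library, the block, a muscle score as covariate, limma 3.58.1 on log2(TPM + 1), single transcripts, CPM for shares and leaving out each library. Fits without robust estimation of the spread were added after seeing the data. The members, gene lists and motifs were chosen with earlier results of these data known. Library values are given for members that passed, the 3 of each class with the smallest p, the 5 with the highest TPM and those at or under 3 reads. *Itga1*, *Itga6*, *Itga10*, *Itgb2*, *Itgb4*, *Itgb6*, *Itgb8*, *Lama2* and *Lama5* were added after their values were seen. Promoter windows came from RefSeq (GRCm38.p6).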

Additional observations from a re-analysis of the deposited data

How the results depend on the processing

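The number of members passing the test was 2 in the reported fit, with the replicate block and with the muscle score, although not the same genes. *Itga11* and *Lama3* passed in the reported fit, *Itga11* and *Itga2* with the block, and *Lama3* and *Itga2* with the muscle score. The number was 7 with DESeq2, 0 without robust estimation of the spread, 0 without it and with the block, 0 with limma on TPM, 0 for single transcripts, and 0 to 3 on leaving out 1 library. It was 3 (*Itga11*, *Lama3* and *Itga4*) without LysM-Cre replicate 2, a fit that called 519 of all genes, and 0 without any other library. Over all genes the number was 184 as reported, 685 with DESeq2, 121 with the muscle score, 68 with limma, 47 without robust estimation and with the block, 1 for single transcripts, and 16 to 519 on leaving out 1 library. For integrin ligands it was 3 with DESeq2, 1 with the block and 0 to 1 on leaving out 1 library, and for laminin partners 1 with DESeq2 and 1 with the muscle score. The cause of these differences was not tested. On CPM in place of TPM the share of *Itga11* among collagen-binding α subunits differed by 9.20 percentage points and that of *Itga2* by −6.33. Some log2 fold changes turned direction. *Itgal* was at −0.01 with the block, −0.01 with the block and no robust estimation and −0.00 with limma, *Itgb1* at −0.00 with upper-quartile scaling, and *Itgae*, *Itgb6* and *Lama4* at 0.16, −0.15 and −0.00 with the muscle score. On leaving out 1 library, *Itgal* ran from −0.21 to 0.12, *Itgax* from −0.19 to 0.46, *Itgae* from −0.19 to 0.10, *Itgb2* from −0.04 to 0.25, *Itga6* from −0.39 to 0.13, *Itga5* from −0.07 to 0.09, *Itga7* from −0.21 to 0.05, *Itgb1* from −0.02 to 0.04, *Itgb8* from −0.59 to 0.22, *Lama1* from −0.15 to 0.17, *Lama2* from −0.34 to 0.19, *Lama4* from −0.06 to 0.13, *Lamb1* from −0.03 to 0.08, *Lamc1* from −0.17 to 0.02 and *Lamc3* from −0.47 to 0.28. The block changed no call of another member. With 3 libraries a group, an exact test cannot go below 0.1.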
